A study of Mus musculus with 9 samples.

Results

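Immediate-early genes are the genes that cells switch on first after a stimulus, and 10 of them, Fos, Fosb, Jun, Junb, Jund, Egr1, Dusp1, Ier2, Atf3 and Klf2, were followed through 9 mouse lymphomas. All probe sets that the platform annotation assigns to these symbols were taken, 12 of the 45037 in the table, and the symbols stand for 10 of 18193 named genes. Of the 10 genes, 9 passed the filter on low values and were tested, among 10172 genes in all. The exception was Fosb.

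The series compared lymphomas of Eμ-Myc;Eµ-TTP-1 mice (5 tumours, called double-transgenic here) with lymphomas of Eμ-Myc mice (4 tumours), each on a strain background that is 94% C57BL/6. In both groups the Eμ enhancer of the immunoglobulin heavy chain gene drives Myc in B lineage cells, so the Eμ-Myc tumours are oncogene-driven controls and no normal B cells were included. The double-transgenic mice carry a second transgene, Eμ-TTP-1, and the title of the series asks whether tristetraprolin (TTP) suppresses Myc-induced lymphoma. The labels used here give neither age nor stage, and they call the tumours biological replicates. Zfp36, the gene of TTP and itself a primary response gene, averaged a log2 level of 10.55 ± 0.38 in double-transgenic (SD, n = 5) and 10.57 ± 0.41 in Eμ-Myc tumours (SD, n = 4), so the labels could not be checked by it, and whether its probe set reads the transgene's mRNA is not known. The tumours carried pan-B cell markers, with 1 that stood apart on 2 of them: in double-transgenic replicate 2 Cd22 read 6.99 and Cd72 7.50, against 11.91 to 12.93 and 10.13 to 12.45 in the other 8 tumours, while its Cd79a (14.04) and Cd79b (15.30) were high. Values without that tumour are given for Fos and for the correlation of Jund and Klf2. The homing gene Ccr7 also rested on it, and its levels are given below.

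The Fos and Jun families of basic leucine zipper proteins pair to form the transcription factor AP-1. Egr1 is a zinc finger factor induced through serum response factor and its ERK-activated partners, and Dusp1 is a phosphatase that switches MAP kinases off again. Transcription of these genes starts within minutes and their mRNAs decay fast, in several cases through AU-rich elements such as the classic one of Fos mRNA, and TTP is a protein that binds such elements and speeds decay. In lymphocytes Klf2 is different in that resting cells hold it at a high level, where it maintains quiescence and homing.

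Promoter windows are shown for 5 of the genes as examples of short elements known to respond to signals, as the results turn on how unevenly these genes varied among the tumours. The windows of Fosb and Junb hold TGACG too and are not printed. RefSeq's table for build GRCm38.p6 had a window for 8 of the 10 genes, all but Egr1 and Ier2. The 150 bases before the annotated start are printed 5′ to 3′ on the gene's own strand. Capitals mark matches on either strand to TGACG (the cyclic AMP response element half-site), the full element TGACGTCA, which contains TGACG, the TATA box letters TATAAA, and the MEF2 site.
Fos, chr12:85473740-85473889, plus strand: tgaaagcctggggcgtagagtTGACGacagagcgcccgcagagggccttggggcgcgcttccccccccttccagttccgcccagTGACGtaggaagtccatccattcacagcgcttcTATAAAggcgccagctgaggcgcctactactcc
Dusp1, chr17:26508473-26508622, minus strand: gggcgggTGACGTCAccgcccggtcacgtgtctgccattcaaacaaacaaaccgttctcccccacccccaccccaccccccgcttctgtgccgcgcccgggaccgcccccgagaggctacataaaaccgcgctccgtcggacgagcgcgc
Jun, chr4:95052223-95052372, minus strand: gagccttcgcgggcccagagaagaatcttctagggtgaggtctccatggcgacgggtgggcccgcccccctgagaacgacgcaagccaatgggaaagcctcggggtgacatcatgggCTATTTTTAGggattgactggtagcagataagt
Atf3, chr1:191183334-191183483, minus strand: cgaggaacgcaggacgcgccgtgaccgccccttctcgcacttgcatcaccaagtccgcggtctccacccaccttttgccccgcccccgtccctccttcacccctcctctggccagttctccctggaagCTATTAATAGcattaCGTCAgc
Klf2, chr8:72318912-72319061, plus strand: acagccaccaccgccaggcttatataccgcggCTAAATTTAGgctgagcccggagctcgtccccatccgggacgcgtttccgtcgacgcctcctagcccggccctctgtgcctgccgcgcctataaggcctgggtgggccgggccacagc
In the 250 bases before the start, TGACG occurred in 6 of the 8 windows and in 17.8% of all 32851 windows of the table. TGACGTCA occurred in the Dusp1 window, where 1.55% of all windows hold it. TATAAA occurred in the Fos window, against 12.4% of all windows. The MEF2 site was matched in the Jun, Atf3 and Klf2 windows, as CTATTTTTAG, CTATTAATAG and CTAAATTTAG, and in 0.508% of all windows. Neither the AP-1 letters TGACTCA, which 4.46% of all windows hold, nor the CArG box of serum response factor, which 1.47% hold, was found in the 8 windows. These matches describe letters in short windows and were chosen with the genes known. They say nothing of Egr1, Ier2 or bases farther from the start.

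None of the 9 tested immediate-early genes passed the limma test between double-transgenic and Eμ-Myc lymphomas. Their Benjamini-Hochberg adjusted p from limma ran from 0.845 to 0.913, and 0 of 9 were called at 0.05, against 0% of all tested genes. At an unadjusted p under 0.05 there were 2 of 9, Dusp1 with a higher and Junb with a lower mean in double-transgenic tumours, where 3.87% of all genes had this p with a higher mean and 1.8% with a lower one, 5.67% in all. The groups overlapped in all 9 genes, while 1.64% of all genes had groups that did not overlap. Means were higher in double-transgenic lymphomas for 4 genes and lower for 5, with a median log2 difference, double-transgenic minus Eμ-Myc, of -0.36. Over all tested genes that median was 0.05 and 58.9% of the differences lay above 0.

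**Figure D1:**
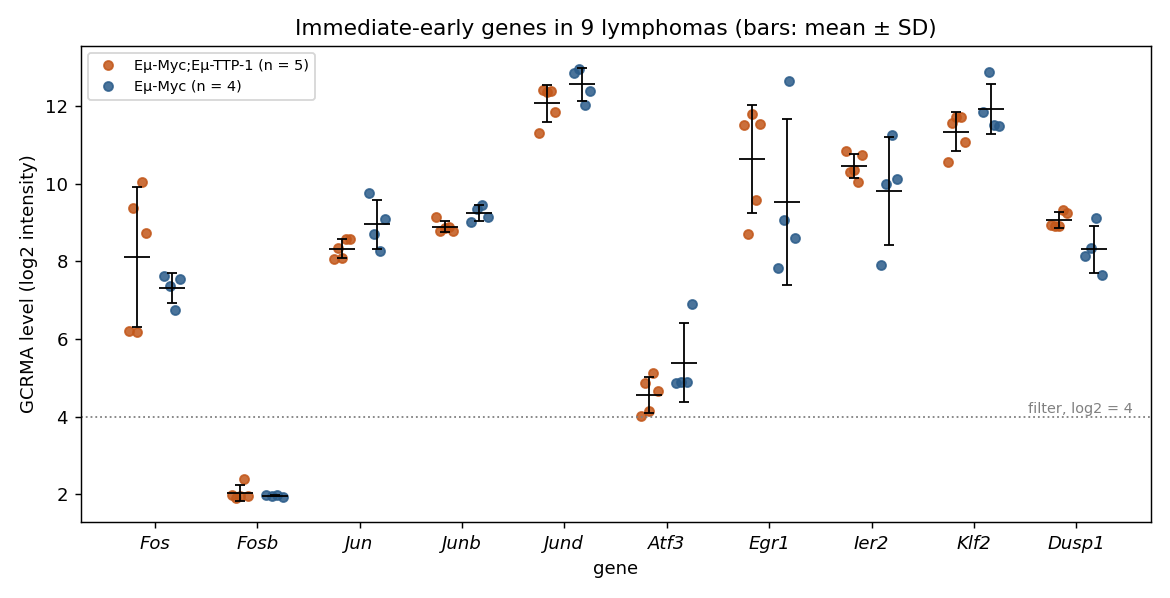
Log2 GCRMA intensity (vertical axis) of the 10 genes (horizontal axis, the probe set with the highest mean) in 5 double-transgenic (orange, left) and 4 Eμ-Myc (blue, right) lymphomas, with 1 point per tumour and bars for mean and SD. Fos spreads between 6.19 and 10.03 in double-transgenic tumours, Egr1 spreads widely in both groups, Junb hardly at all, and Fosb stays near 2 in every tumour; heights of different genes are not comparable on this array.

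Fos, the founding AP-1 gene, was uneven among the double-transgenic tumours. Its log2 level read 6.21, 9.38, 6.19, 10.03 and 8.73 in double-transgenic replicates 1 to 5, against 7.61, 7.38, 6.75 and 7.54 in Eμ-Myc replicates 1 to 4. Replicates 2, 4 and 5 of the double-transgenic group lay above every Eμ-Myc tumour and replicates 1 and 3 below every one. The means were 8.11 ± 1.80 in double-transgenic (SD, n = 5) and 7.32 ± 0.39 in Eμ-Myc lymphomas (SD, n = 4). The log2 difference was 0.79 (95% interval -1.12 to 2.70), with a limma adjusted p of 0.913 and an exact permutation p of 0.421, two-sided. Without double-transgenic replicate 2 it was 0.47, and without replicate 4 it was 0.31. The lowest and the highest tumour differed 14.4-fold in intensity.

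Fosb, whose protein can take the place of Fos in AP-1, was under the filter on every array. Its only probe set read an intensity of 3.76 to 5.23, with log2 levels of 1.91 to 2.39 in double-transgenic and 1.94 to 1.98 in Eμ-Myc lymphomas. An intensity of 16 was the lower limit for testing, so this gives a bound only and no fold.

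Among the Jun genes, Jun, the chief partner of Fos, had lower values in most double-transgenic tumours, but the groups overlapped. Its log2 level was 8.05, 8.34, 8.09, 8.56 and 8.56 in double-transgenic replicates 1 to 5, against 9.75, 8.69, 8.27 and 9.08 in Eμ-Myc replicates 1 to 4. Eμ-Myc replicate 3 lay within the double-transgenic range, and the other Eμ-Myc tumours lay above it. The log2 difference was -0.63 (95% interval -1.28 to 0.02, limma adjusted p = 0.845, exact permutation p = 0.0635, two-sided). The second Jun probe set, with log2 levels of 5.64 to 6.51 in double-transgenic and 5.79 to 6.74 in Eμ-Myc lymphomas, had a difference of -0.17 (95% interval -0.73 to 0.39), so the size of the Jun difference depended on the probe set.

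Junb, an AP-1 subunit that often opposes Jun, was the steadiest of the tested genes. It read 9.13, 8.78, 8.86, 8.89 and 8.78 on the log2 scale in double-transgenic replicates 1 to 5, against 9.02, 9.36, 9.46 and 9.14 in Eμ-Myc replicates 1 to 4. Only double-transgenic replicate 1 reached into the Eμ-Myc range. Its log2 difference was -0.36 (95% interval -0.66 to -0.05), which is 0.781-fold in intensity, with a limma adjusted p of 0.845 and an exact permutation p of 0.0238, two-sided, unadjusted. The smallest p these 9 arrays allow is 0.00794. Jund, the Jun gene that is least dependent on stimuli, read 11.32, 12.41, 12.36, 12.38 and 11.86 in double-transgenic replicates 1 to 5, against 12.86, 12.96, 12.04 and 12.38 in Eμ-Myc replicates 1 to 4. Double-transgenic replicate 1 was lowest and Eμ-Myc replicates 1 and 2 were highest. The Jund difference was -0.49 (95% interval -1.15 to 0.17, limma adjusted p = 0.860), and a second Jund probe set lay under the filter at log2 levels of 2.28 to 2.38 in all 9 tumours.

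Atf3, a stress-induced bZIP factor that pairs with Jun proteins, lay near the lower limit for testing except in 1 tumour. It read 4.02, 4.86, 4.14, 5.13 and 4.66 in double-transgenic replicates 1 to 5, against 4.86, 4.89, 4.88 and 6.91 in Eμ-Myc replicates 1 to 4. Eμ-Myc replicate 4 stood apart, and without it the log2 difference of -0.82 (95% interval -1.88 to 0.23, limma adjusted p = 0.860) was -0.32. Klf2 read 10.57, 11.56, 11.72, 11.72 and 11.08 in double-transgenic replicates 1 to 5, against 11.83, 12.87, 11.52 and 11.49 in Eμ-Myc replicates 1 to 4. Eμ-Myc replicate 2 was highest, and double-transgenic replicates 1 and 5 were lowest. The Klf2 difference was -0.60 (95% interval -1.40 to 0.21, limma adjusted p = 0.860), or -0.28 without Eμ-Myc replicate 2.

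Dusp1 was the only gene among the 9 with a higher mean in double-transgenic tumours and an unadjusted p under 0.05. It read 8.92, 8.92, 8.92, 9.31 and 9.26 in double-transgenic replicates 1 to 5, against 8.14, 8.34, 9.11 and 7.65 in Eμ-Myc replicates 1 to 4. The double-transgenic tumours were close together, and Eμ-Myc replicate 3 alone reached their range. The values of double-transgenic replicates 2 and 3 were identical, for a reason that was not tested, and the SD of the group includes that tie. Other genes had ties too. Atf3 read the same (4.86) in double-transgenic replicate 2 and Eμ-Myc replicate 1, and Pax5 (8.66) in double-transgenic replicates 1, 3, 4 and 5. The means were 9.07 ± 0.20 in double-transgenic (SD, n = 5) and 8.31 ± 0.61 in Eμ-Myc lymphomas (SD, n = 4). Its log2 difference was 0.76 (95% interval 0.14 to 1.37), 1.69-fold in intensity, with a limma adjusted p of 0.845 and an exact permutation p of 0.0556, two-sided. It was 1.02 without Eμ-Myc replicate 3, with a limma adjusted p of 0.240, and 0.53 without Eμ-Myc replicate 4. Its window, printed above, is the one with the full element TGACGTCA.

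**Figure D2:**
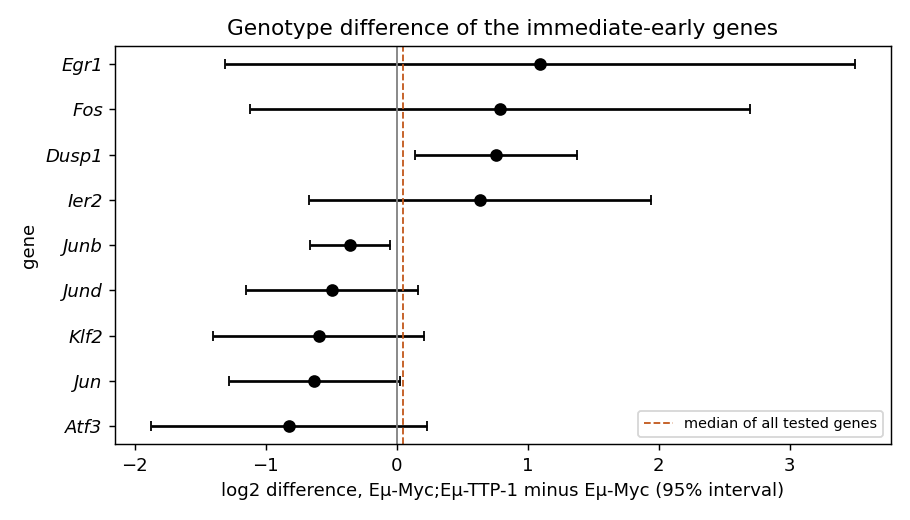
Log2 difference of each tested gene (rows), double-transgenic minus Eμ-Myc lymphomas, as limma's estimate with its 95% interval (horizontal axis), n = 5 and 4; the dashed line is the median of all tested genes, 0.05. Only the intervals of Dusp1 and Junb leave out 0, before any adjustment for the number of genes.

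Egr1 had the widest range of the 9, and its levels fell into a low and a high range within each genotype. It read 11.51, 8.71, 11.80, 9.59 and 11.54 in double-transgenic replicates 1 to 5, against 7.83, 9.07, 12.64 and 8.60 in Eμ-Myc replicates 1 to 4. No tumour lay between 9.59 and 11.51, with 5 tumours below that gap and 4 above it: double-transgenic replicates 1, 3 and 5, and replicate 3 of Eμ-Myc. The intensity of the highest tumour was 28.2 times that of the lowest. Between the genotypes the log2 difference was 1.10 (95% interval -1.31 to 3.50, limma adjusted p = 0.901, exact permutation p = 0.373, two-sided), and it ranged from 0.53 without Eμ-Myc replicate 1 to 2.13 without Eμ-Myc replicate 3.

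Ier2, a nuclear protein gene of the early response, ordered the tumours in part like Egr1. It read 10.83, 10.31, 10.36, 10.05 and 10.73 in double-transgenic replicates 1 to 5, against 7.91, 9.99, 11.25 and 10.11 in Eμ-Myc replicates 1 to 4. Eμ-Myc replicate 1 was lowest by a wide margin and was lowest for Egr1 too, and the 4 highest tumours were those with the highest Egr1, although double-transgenic replicates 2 and 3 differed little. The Ier2 difference between genotypes was 0.64 (95% interval -0.67 to 1.94, limma adjusted p = 0.893) and 3.42e-03 without Eμ-Myc replicate 1.

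The tumours with high Egr1 were also those with high mRNA of ERK feedback inhibitors, the phosphatases and Sprouty and Spred proteins that restrain ERK signalling, several of them induced by it. Dusp6, the phosphatase of ERK in the cytoplasm, read 12.90, 9.04, 13.88, 12.26 and 12.97 in double-transgenic replicates 1 to 5, against 9.81, 10.08, 13.41 and 9.65 in Eμ-Myc replicates 1 to 4. Spry2, a Sprouty gene, read 9.53, 5.98, 9.61, 7.95 and 9.39 in double-transgenic replicates 1 to 5, against 3.71, 3.51, 10.53 and 4.96 in Eμ-Myc replicates 1 to 4. Dusp4, a nuclear MAP kinase phosphatase, read 11.16, 3.89, 10.32, 7.65 and 11.28 in the same double-transgenic tumours, against 5.39, 3.93, 11.04 and 3.91 in Eμ-Myc replicates 1 to 4. In all 3 genes double-transgenic replicates 1, 3 and 5 and Eμ-Myc replicate 3 were highest and double-transgenic replicate 4 came next. Of 10 tested genes on the list of MAP kinase phosphatases and ERK feedback inhibitors, 6 (Dusp4, Dusp6, Spry1, Spry2, Spred1 and Spred2) had their 4 highest values in the 4 tumours with the highest Egr1, as did 234 of 10171 tested genes, or 2.3%. Among those 6 genes, Spred1 did not place double-transgenic replicate 4 next. It read 9.19 there, against 10.32 in double-transgenic replicate 2.

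**Figure D3:**
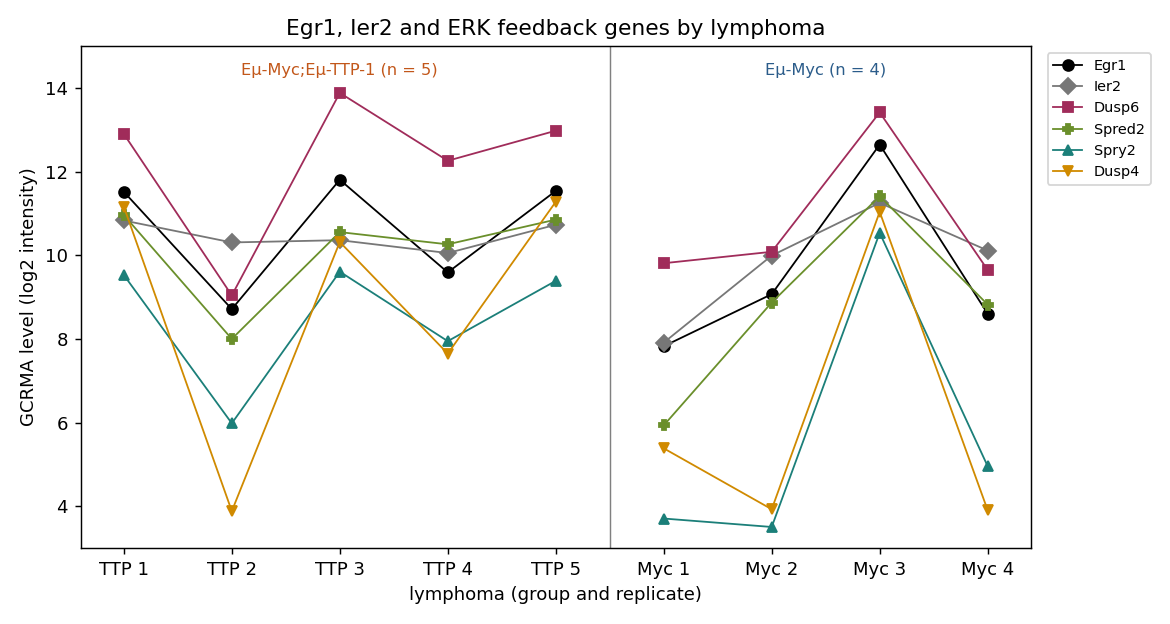
Log2 GCRMA intensity (vertical axis) of Egr1, Ier2 and 4 ERK feedback genes in each lymphoma (horizontal axis: TTP for double-transgenic, Myc for Eμ-Myc, with the replicate number); lines only link the points of 1 gene. Egr1 and the 4 feedback genes shown peak together in double-transgenic replicates 1, 3 and 5 and in Eμ-Myc replicate 3. For these genes double-transgenic replicate 4 lies between.

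The full order was rare among other immediate-early genes, as among all genes. A partial match was more common in a list of other primary response genes, but not among the 10. Of the remaining tested genes among the 10, Ier2 alone had its 4 highest values in the same tumours, 1 of 8, and of 28 tested genes in a list of other primary response genes there were 0. Of those 28 genes, 11 had 3 of their 4 highest values in the tumours with high Egr1, or 39.3%, as did 17.1% of all tested genes. They were Egr3, Ier5, Btg1, Zfp36, Sgk1, Rhob, Tnfaip3, Nfkbia, Cd69, Ppp1r15a and Sertad1. Of the 8 tested genes among the 10 besides Egr1, 1 had such a partial match (Dusp1), or 12.5%. On the list of AP-1 partners and related factors it was 4 of 10, or 40.0%. Egr3, of the same family as Egr1, read 5.50, 2.48, 4.32, 4.57 and 8.71 in double-transgenic replicates 1 to 5, against 3.99, 5.53, 8.05 and 4.77 in Eμ-Myc replicates 1 to 4. It was far above the rest in double-transgenic replicate 5 and Eμ-Myc replicate 3. Fos was among its lowest in double-transgenic replicates 1 and 3 and in Eμ-Myc replicate 3, where Egr1 was high, but in double-transgenic replicate 5, the remaining tumour with high Egr1, Fos, at 8.73, was above all Eμ-Myc tumours. In the list of upstream kinases and factors 2 of 19 tested genes, Elk3, an ETS partner of serum response factor, and Mrtfb, a coactivator of the same factor, had their 4 highest values there. As the Egr1 levels lie in separate ranges of 4 and 5 tumours, coefficients of Egr1 with the other immediate-early genes are not reported, although the 8 pairs that hold Egr1 were computed and count in the adjustment over 36 pairs below. Within the marker lists, 0 of 9 pan-B genes, 1 of 10 macrophage genes (Lyz2, with 14.44 or more in those 4 tumours and 14.17 or less in the others), 1 of 6 T cell genes (Cd4), 0 of 7 granulocyte genes and 0 of 9 stromal genes shared the order.

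By Pearson r over the 9 tumours, the tested genes most like Egr1 were Asb2 (r = 0.98), Mfge8 (0.98), Flrt3 (0.97), Dmwd (0.96) and Tspan10 (0.96), given as a description of likeness with no test. Asb2 encodes a substrate adaptor of a ubiquitin ligase and Mfge8 a secreted protein that bridges dying cells to phagocytes. Mfge8 read 11.49, 9.15, 11.59, 10.18 and 11.89 in double-transgenic replicates 1 to 5, against 9.34, 9.44, 12.72 and 9.47 in Eμ-Myc replicates 1 to 4. These coefficients mostly reflect the low and high ranges.

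Jund and Klf2 were the only pair among those without Egr1 whose levels passed a test of Pearson r over the tumours after adjustment. Of the 36 pairs of tested genes, 28 do not hold Egr1, and of these 17 had a positive and 11 a negative r. For Jund and Klf2 Pearson r was 0.90 (exact permutation p = 0.00147, two-sided, Benjamini-Hochberg adjusted over 36 pairs 0.0287). Adjusted over the 28 pairs without Egr1 alone, it was 0.0412. Spearman rho was 0.85 (exact permutation p = 0.00607, adjusted 0.0992 over 36 pairs and 0.0772 over 28), which did not pass. Without the 2 tumours farthest from the Jund median r was 0.84, from deviations within each genotype it was 0.87, and without double-transgenic replicate 2 it was 0.91. Jun and Ier2 ran in opposite directions, with r = -0.87 (exact permutation p = 0.00772, adjusted 0.0926) and rho = -0.83 (exact permutation p = 0.00827, adjusted 0.0992). Neither passed after adjustment, and r was -0.51 without the 2 tumours farthest from the Jun median, among them Eμ-Myc replicate 1. None of the 3 pairs among Jun, Atf3 and Klf2, whose windows hold the MEF2 match, passed: r was 0.51 for Jun and Atf3, 0.34 for Jun and Klf2 and 0.18 for Atf3 and Klf2, with adjusted exact permutation p of 0.411, 0.648 and 0.732. Their rho was 0.68, 0.45 and 0.28 in the same order, with adjusted exact permutation p of 0.185, 0.428 and 0.627.

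**Figure D4:**
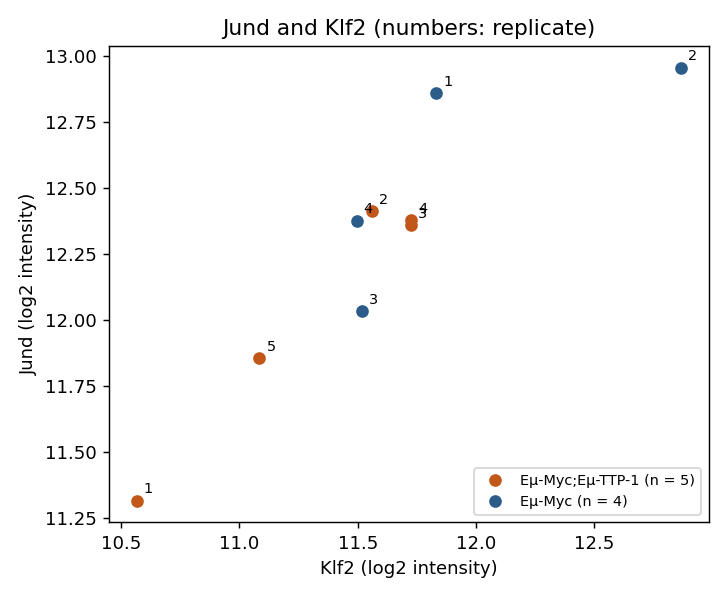
Log2 GCRMA intensity of Jund (vertical axis) against Klf2 (horizontal axis) in 5 double-transgenic (orange) and 4 Eμ-Myc (blue) lymphomas, each numbered by replicate. Double-transgenic replicate 1 is lowest and Eμ-Myc replicate 2 highest for both genes, and the other tumours lie between (r = 0.90).

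Jund and Klf2 lie near each other on chromosome 8, with 38 other tested genes between them, and Ier2 and Junb are a second near pair on that chromosome with 12 tested genes between. The genes between them varied both with and against the pair. Their Pearson r with Jund ran from -0.55 to 0.90 with a median of 0.09, and with Klf2 from -0.68 to 0.75 with a median of 0.13. Niban3 had the highest r with each (0.90 and 0.75), and Rab8a, a vesicle transport GTPase, came next (0.75 with Jund and 0.70 with Klf2), both singled out after their values were seen. What the shared location contributes was not tested. The tested genes most like Klf2 in Pearson r over the 9 tumours lay on other chromosomes: Dgkh (0.94), Prkar2b, a regulatory subunit of protein kinase A (0.94), Atp6v1e1, a proton pump subunit (0.92), Zbtb32 (0.89) and Tmem156 (0.89). Homing genes linked to Klf2 did not follow one direction between genotypes, with 3 higher and 5 lower in double-transgenic tumours, a median log2 difference of -0.14 and 0 of 8 called. Their ends were Ccr7 (-1.79, SE 1.46) and Klf3 (-1.12, SE 0.61) at one side and S1pr4 (0.20, SE 0.29) and Cxcr5 (0.47, SE 1.00) at the other. The size of the Ccr7 difference rested on double-transgenic replicate 2, where it read 3.28 against 9.26 to 11.28 in the other tumours.

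Fos within the double-transgenic group, and Atf3 within the Eμ-Myc group, were high in tumours with high collagen and Sparc mRNA, which mark stroma. The mean log2 level of 9 stromal and endothelial markers was 8.50, 10.98, 8.94, 10.51 and 10.30 in double-transgenic replicates 1 to 5, against 9.71, 9.28, 9.85 and 11.19 in Eμ-Myc replicates 1 to 4. Double-transgenic replicates 1 and 3 were lowest for this mean and for Fos. The same tumours were the lowest of the group for 6 of the 9 markers (Col1a1, Col1a2, Col3a1, Kdr, Bgn and Sparc), as for 11.6% of all tested genes. The endothelial marker Pecam1 ran the other way, with 10.46, 9.89, 10.76, 9.68 and 10.53 in double-transgenic replicates 1 to 5, against 10.48, 9.39 and 10.15 in Eμ-Myc replicates 1 to 3 and a lower level in replicate 4, and Dcn and Cdh5 did not share the order. Single markers of other cell types matched Fos in part. The macrophage gene Mrc1 read 5.39, 10.87, 7.63, 10.58 and 7.30 in double-transgenic replicates 1 to 5. The granulocyte gene S100a9 read 7.24, 12.65, 4.76, 9.15 and 6.14 in the same tumours. Both were highest in replicates 2 and 4, as Fos was. Their lists did not share the order: 1 of 10 macrophage genes (Adgre1) and 1 of 7 granulocyte genes (Mmp9) had the 2 lowest tumours of Fos, near the 11.6% of all tested genes. The macrophage gene Lyz2 was lowest in double-transgenic replicate 2 (13.86).

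In the Eμ-Myc group replicate 4 was highest for Atf3 and for 8 of the 9 stromal and endothelial markers, all but Pecam1, while its Fos level was within the group's range. Of all tested genes, 24.7% were highest in that tumour among the 4. T cell markers stood out in the same tumour, with 5 of 6 tested genes highest there and a summed intensity of 1399, against 180 to 251 in the other Eμ-Myc tumours. Thy1 read 9.33, Cd3d 8.02 and Lat 8.01 in Eμ-Myc replicate 4. Macrophage genes did not stand out there as a list. Only 2 of 10, Adgre1 (9.97) and Mrc1 (10.75), were highest in that tumour within the group, a share not above the 24.7% of all tested genes. The other macrophage genes were highest in Eμ-Myc replicate 3. All 9 stromal and endothelial markers were tested, and their summed intensity ran from 6353 to 57142 in double-transgenic and from 11868 to 67038 in Eμ-Myc tumours. The part of these cell types in the Fos and Atf3 values was not tested, and in whole tumours a change in the share of a cell type cannot be told apart from a change in mRNA per cell.

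**Figure D5:**
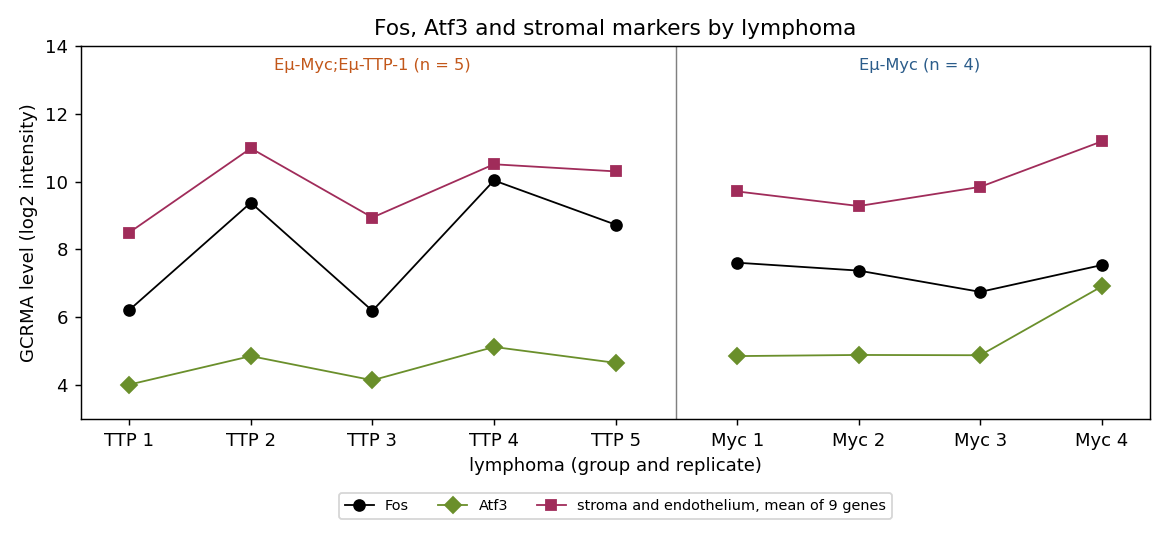
Log2 GCRMA intensity (vertical axis) of Fos and Atf3 and the mean of 9 stromal and endothelial markers in each lymphoma (horizontal axis: TTP for double-transgenic, Myc for Eμ-Myc, with the replicate number); lines only link the points of 1 item. In the double-transgenic group Fos and the markers are low in replicates 1 and 3; Atf3 and the markers peak in Eμ-Myc replicate 4.

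The tested genes most like Fos in Pearson r over the 9 tumours were Hps1 (0.93), Marcks, a protein kinase C substrate (0.91), Ganab, a subunit of the glucosidase that trims glycoproteins (0.91), Fbxl15 (0.90) and Atp6v0b (0.89). Hps1, Ganab and Fbxl15, 3 of these 5, lie on chromosome 19, while Fos lies on chromosome 12. The shared chromosome was noticed after the values were seen and was not tested. Fbxl15 lay near the lower limit for testing, between log2 levels of 4.17 and 5.09.

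Spread among tumours of 1 genotype was above that of the median gene for 8 of the 9 tested genes. The pooled SD of log2 levels within genotypes was 1.75 for Egr1, at the 95.9th percentile of all tested genes, 1.39 for Fos, at the 93.2nd, and 0.94 for Ier2, at the 85.7th. For Junb it was 0.17, at the 13.0th percentile. The median over the 9 genes was 0.57 and that over all tested genes 0.35. In the list of MAP kinase phosphatases and ERK feedback inhibitors the median was 1.60. In the list of kinases and factors upstream of the response the median was 0.28.

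In the wider response no gene passed the test between genotypes either. Of 28 tested primary response genes outside the 10, double-transgenic means were higher in 12 and lower in 16, with a median log2 difference of -0.10, 0 called and 2 at an unadjusted p under 0.05, where 5.67% of all tested genes had this p. At the ends stood Klf4 (-1.06, SE 0.32) and Nfkbiz (-1.01, SE 0.39), against Sgk1 (0.57, SE 0.76) and Ccn1 (0.98, SE 0.66). Of 10 MAP kinase phosphatases and ERK feedback inhibitors 7 were higher and 3 lower, with a median of 1.08 and 0 called. Their ends were Dusp10 (-0.88, SE 0.88) and Dusp16 (-0.62, SE 0.34), against Dusp4 (2.79, SE 1.96) and Spry2 (2.81, SE 1.48), whose SE reflects the spread within genotypes. Among 10 AP-1 partners and related factors 4 were higher and 6 lower with a median of -0.19, from Cebpb (-0.94, SE 0.55) and Batf (-0.33, SE 0.37) to Atf2 (0.24, SE 0.11) and Jdp2 (1.06, SE 0.69). Of 19 upstream kinases and factors 11 were higher and 8 lower with a median of 0.10, from Rps6ka3 (-0.39, SE 0.21) and Mapk7 (-0.32, SE 0.19) to Mef2c (0.85, SE 0.70) and Elk3 (1.29, SE 0.74). In all of these lists limma called 0 genes.

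The 9 tested pan-B genes had summed intensities of 88768 to 110663 in double-transgenic and 76553 to 101139 in Eμ-Myc lymphomas. Macrophage markers summed to 34649 to 56557 in double-transgenic and 27423 to 78477 in Eμ-Myc tumours, and granulocyte markers to 212 to 20777 in double-transgenic and 815 to 19763 in Eμ-Myc tumours. T cell markers summed to 337 to 1420 in double-transgenic and 180 to 1399 in Eμ-Myc tumours, with Cd3e under an intensity of 16 on every array. Median intensity per array was 12.2 to 13.4. With 9 arrays, every value is limited in precision by their number.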

How the data were processed

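The authors deposited 1 table of intensity values for 45037 probe sets on 9 Affymetrix mouse arrays, 1 per lymphoma, made with GCRMA per the submitters' processing notes, which name no version. The values, 1.56 to 123105, are linear, so log2 was taken with no pseudocount. GCRMA normalises between arrays. Some weak probe sets stayed in a narrow low range, as the second Jund probe set did at log2 levels of 2.28 to 2.38. Folds of weak genes are therefore poorly determined. Scanner files were not analysed here.

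Of the probe sets, 34945 were annotated to 1 gene, 932 to several and 9160 to none listed; only the first were used, and 34741 matched the RefSeq table (GRCm38.p6), used for names and gene order. For each gene the brightest probe set (highest mean log2) was taken, and those with log2 over 4 in at least 4 of 9 arrays were tested (limma 3.58.1, under R 4.3.3; linear model with eBayes moderation, two-sided; Benjamini-Hochberg over all tested genes, no covariates). Simulated data of 10172 genes, 9972 unchanged, gave 9 false calls. There 48% of the changes of 1 log2 unit and 80% of those of 2 log2 units were called. Exact permutation used all 126 splits of the arrays, or all 362880 pairings for correlations.

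The genes and the 12 lists were chosen with earlier results of these data known. Text names the 10 genes, the 2 genes at each end of a response list, and the 5 genes most like Fos, Egr1 and Klf2; genes described for their match to the Egr1 order, and Zfp36, were chosen after their values were seen. Marker lists are given by their sums and, for stromal markers, the mean log2 level; single markers, Niban3 and Rab8a were named after their values were seen. The adjustment over 28 pairs and correlations without double-transgenic replicate 2 were added after seeing the data. Alternatives were no filter and a filter of 6, all or averaged probe sets, no _x_at sets, quantile normalisation, median centring, array weights, a trended robust prior, the replicate block, a pseudocount of 16 and each array left out.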

Additional observations from a re-analysis of the deposited data

Results flagged for a closer look

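Within-group gaps were examined for the 12 probe sets in each genotype, 24 groups of values, where chance flags about 1 in 20, or 1.2. Atf3 read 6.91 in Eμ-Myc replicate 4, far from the 4.86 to 4.89 of the other Eμ-Myc tumours. Fosb read 2.39 in double-transgenic replicate 4, far from the 1.91 to 1.97 of the other double-transgenic tumours, though all these values lie under the lower limit for testing.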

How the results depend on the processing

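No immediate-early gene changed direction or was called under any alternative run, 20 per gene and 19 for Atf3, which did not pass the filter of 6. Over all genes limma called 0, at an unadjusted p under 0.05 it had 577, and with 1 array left out it called 0 to 8, with 8 without Eμ-Myc replicate 3, 1 without Eμ-Myc replicate 4 and 0 without any other; the other alternatives called 0. The median log2 difference of the tested immediate-early genes was -0.36, -0.36 to -0.28 with 1 array left out, and 0.14 with the log2 filter of 6, where the 8 genes left split evenly. The replicate numbers did not pair the arrays (correlations of deviations -0.09, 0.09, -3.34e-03 and 0.20); with the replicate block the median was -0.33 and 0 genes were called. With arrays left out, Fos ran from 0.31 to 1.27, Egr1 from 0.53 to 2.13, Dusp1 from 0.53 to 1.02, Ier2 from 3.42e-03 to 1.12 and Jun from -0.85 to -0.36. The Jund and Klf2 correlation was 0.90 with a pseudocount of 16, the mean of probe sets or quantile normalisation. Weak signals limit Fosb and Atf3.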
